A study of Mus musculus with 16 samples.

Results

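The genes described are those of the acid-sensing ion channels (ASICs) and the Piezo channels in sorted mouse sensory neurons. The count tables list them under older symbols, and the members were chosen by these names: *Accn1* (now *Asic2*), *Accn2* (now *Asic1*), *Accn3* (now *Asic3*), *Accn4* (now *Asic4*), *Fam38a* (now *Piezo1*) and *Fam38b* (now *Piezo2*). These are 6 of the 22609 genes in the tables, 4 of them ASIC genes and 2 Piezo genes. RNA-seq was performed on TdTomato+ cells sorted by fluorescence from TG (trigeminal ganglion), NG/JG (nodose, collected as the nodose and jugular complex), L3–L5 DRG and T10-L1 DRG (dorsal root ganglia of lumbar levels 3 to 5 and of the levels around the thoracolumbar border). There were 4 libraries per kind of ganglion and 16 in all. All mice carried the same reporter, Pirt cre/-, Rosa26 LSL-tdTomato/+, on C57BL/6J, and were described as male, 8 to 12 weeks old and untreated, so the groups differ by ganglion and share genotype. Whether the ganglia also shared days of dissection and sorting is not given in the sources used here. *Pirt* drives the Cre recombinase, which switches on TdTomato in most primary sensory neurons, and the 2 cycles of sorting kept the brightly labelled cells of left and right ganglia, so dimly labelled neurons are not in these libraries. The labels do not say whether the libraries of a ganglion came from separate animals, so the p-values measure only the spread between libraries.

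ASICs are sodium channels of the degenerin family that open when the fluid outside a neuron turns acid, as in inflamed, ischaemic or hard-working tissue. Each channel is a trimer, and the subunits mix: ASIC1 and ASIC3 give channels that open to protons by themselves, ASIC2 joins them and changes their sensitivity, and ASIC4 is not known to open to protons. Piezo channels are large trimers that open when the membrane is stretched or indented. Piezo2 carries light touch and body position sense in somatic afferents and stretch sense in the airways and other viscera, while Piezo1 is best known from blood vessels and red cells and takes part with Piezo2 in the baroreceptor reflex of vagal and glossopharyngeal neurons. TG neurons serve the face, NG/JG neurons the thoracic and abdominal viscera, L3–L5 DRG neurons the hind limb and T10-L1 DRG neurons the lower trunk and its viscera.

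*Accn1*, the gene of ASIC2, lies on chromosome 11 and has a pair of annotated starts that are 815.5 kb apart, and a count per gene adds the transcripts of both. The promoters at these starts are shown because the *Accn1* counts cannot tell them apart. Each runs from 250 bases before the start to 50 after it, read on the minus strand from RefSeq on GRCm38.p6, a later build than mm9. Capitals mark matches to a TATA box (TATAAA) or a CCAAT box, searched on both strands.
Asic2 start at chr11:81968347-81968646: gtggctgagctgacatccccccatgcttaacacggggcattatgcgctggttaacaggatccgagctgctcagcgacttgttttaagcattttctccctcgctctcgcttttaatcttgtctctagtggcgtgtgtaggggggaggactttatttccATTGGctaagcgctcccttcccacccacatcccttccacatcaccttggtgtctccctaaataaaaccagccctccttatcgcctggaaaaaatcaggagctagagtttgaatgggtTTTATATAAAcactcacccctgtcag
Asic2 start at chr11:81152854-81153153: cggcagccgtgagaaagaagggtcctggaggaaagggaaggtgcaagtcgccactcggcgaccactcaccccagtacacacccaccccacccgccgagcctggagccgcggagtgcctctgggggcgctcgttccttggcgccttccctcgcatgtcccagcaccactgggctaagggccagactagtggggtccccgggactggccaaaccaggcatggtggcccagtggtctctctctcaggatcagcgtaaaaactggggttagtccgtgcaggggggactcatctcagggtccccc
The first window held a TATAAA match on each strand, which overlap and begin at positions 25 and 29 after the start, and a CCAAT match that begins 93 bases before it. The second window held neither, nor a GC box (GGGCGG) or the E-box CAGCTG, and had a GC content of 65.3% against 49.7% in the first. Of all 32851 promoters of this length, 13.6% held TATAAA, 37.4% CCAAT, 35.7% GGGCGG and 16.3% CAGCTG, and the median GC content was 52.7%.

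The coordinates of the genes are those of mm9, the build named in the labels, from GENCODE mouse release 1. *Accn3* is the most compact member, at chr5:23919269-23923652 on the plus strand, with 1942 bp of exons. *Accn1* is spread over chr11:80693671-81781959 on the minus strand with 4264 bp of exons. *Accn2* lies at chr15:99501149-99531561 on the plus strand with 4498 bp of exons, and *Accn4* at chr1:75447011-75470918 on the plus strand with 2727 bp. *Fam38a* lies at chr8:125005598-125075229 on the minus strand with 9933 bp of exons, of which 2441 bp (24.6%) coincide with exons of *Ctu2* on the other strand. *Fam38b* lies at chr18:63169867-63546837 on the minus strand with 13036 bp of exons. The other 5 members shared no exon sequence with another gene. Because exon length differs this much, levels were compared between genes only as RPKM, while one gene was compared between ganglia as CPM. CPM is the count of a gene divided by all reads on genes of its library and put on the usual scale of parts in 1e6, and RPKM is the CPM of a gene divided by its exon length in kilobases.

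The libraries had 4735624 to 13333318 reads on genes and 10132 to 18571 genes with a read. A floor of 3 reads was worth 0.225 to 0.6335 CPM, and without molecular identifiers this floor is a limit of counting alone. Between 29.6% and 66.6% of reads fell outside genes, most in L3–L5 DRG library 4. All 13 sensory neuron markers were found in every kind of ganglion, and their summed CPM was 949 to 3557 for TG, 1463 to 4999 for NG/JG, 1281 to 12293 for L3–L5 DRG and 2140 to 4133 for T10-L1 DRG. The 8 satellite glia markers summed to more in every library, 13186 to 64570 CPM, and fewer neurons in a sort cannot be told apart from less RNA of a gene per neuron. The labels call the mice male, but all 16 libraries had reads on *Xist* (1279 to 8362) and none had a read on the 13 chromosome Y genes counted. TMM factors, which scale the libraries in the fits, were 0.769 to 0.945 in TG and 0.893 to 1.14 elsewhere, so fitted fold changes of TG over another ganglion lie above the ratios of the CPM means.

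*Piezo2* (*Fam38b*) was read in every library, and its level was highest in L3–L5 DRG. Its mean level in CPM was 213 ± 130 for L3–L5 DRG, 83.0 ± 34.3 for T10-L1 DRG, 49.6 ± 19.2 for TG and 27.6 ± 23.6 for NG/JG (SD, n = 4). The L3–L5 DRG libraries lay at 96.4, 298, 350 and 106 CPM, all above every TG and every NG/JG library. The T10-L1 DRG libraries lay at 58.4, 133, 75.0 and 65.3 CPM, and the TG libraries at 21.5, 53.9, 59.3 and 63.9 CPM. The NG/JG libraries lay at 17.4, 13.5, 16.4 and 62.9 CPM, so that 3 of them were below all others of the series and library 4 was among the TG values. In this order of levels, L3–L5 DRG overlapped T10-L1 DRG through 1 library (133 CPM), T10-L1 DRG overlapped both TG and NG/JG in the range of 58.4 to 63.9 CPM, and TG and NG/JG overlapped.

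**Figure D1:**
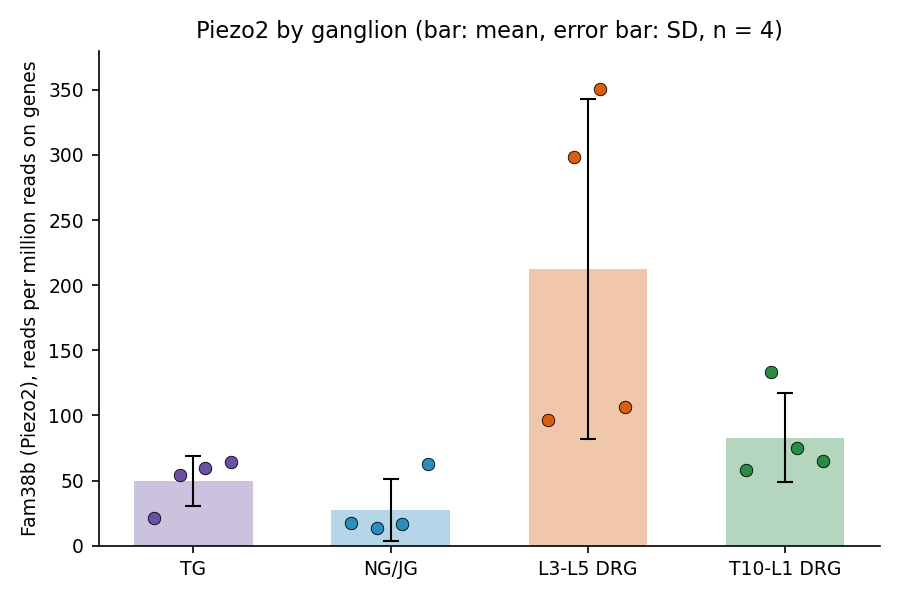
*Piezo2* level in CPM (vertical axis) for the 4 kinds of ganglion (horizontal axis); points are libraries, bars are means and error bars are SD (n = 4). The lowest L3–L5 DRG library (96.4 CPM) sits above the highest TG (63.9 CPM) and NG/JG (62.9 CPM) libraries.

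For *Piezo2* the fitted log2 difference of NG/JG from L3–L5 DRG was -2.75 (SE 0.74), a 6.74-fold lower level with an unadjusted p of 0.00386 and, over 12240 genes, a Benjamini-Hochberg adjusted p of 0.214 (edgeR). The difference of TG from L3–L5 DRG was -1.72 (SE 0.57), with an adjusted p of 0.144 by the same test. These were the only 2 of the 30 differences of testable members in which the libraries did not overlap. Over all genes tested, libraries did not overlap for 7.34% in NG/JG against L3–L5 DRG and for 15.9% in TG against L3–L5 DRG, and for 3.7%, 8.04%, 18.5% and 9.63% in L3–L5 against T10-L1 DRG, NG/JG against T10-L1 DRG, TG against T10-L1 DRG and TG against NG/JG. DESeq2, the alternative count model, gave *Piezo2* an adjusted p of 0.0298 in the first and 0.0465 in the second, and called 5.66% and 11.3% of genes there. No pair therefore passed edgeR's adjusted threshold, and both passed that of DESeq2. These comparisons share the L3–L5 DRG libraries and are not independent of each other.

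Between the DRG levels, the fitted log2 difference of *Piezo2*, L3–L5 over T10-L1, was 1.36 (SE 0.50), with an unadjusted p of 0.0217 and an adjusted p of 0.785 (edgeR), where 6.07% of genes had an unadjusted p under 0.05. Against T10-L1 DRG the differences were -1.43 (SE 0.70) for NG/JG and -0.33 (SE 0.44) for TG, and between TG and NG/JG 0.97 (SE 0.88), none of which passed. Over all 4 ganglia at once, the test of any difference gave *Piezo2* an unadjusted p of 0.00309 and an adjusted p of 0.0729 (edgeR), against 0.00551 with DESeq2. This test called 3.01% of genes in edgeR (17.5% unadjusted) and 12.7% in DESeq2. A single library moved *Piezo2* across the edgeR threshold: the adjusted p was 0.0118 without NG/JG library 4 and 0.0426 without TG library 1, and 0.221 without L3–L5 DRG library 3.

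The neuron markers moved with part of this difference. L3–L5 DRG libraries 2 and 3, with the most *Piezo2*, also had the most neuron marker reads (10937 and 12293 CPM). Per 1000 CPM of summed neuron markers, *Piezo2* was 24.6 to 82.9 for L3–L5 DRG, 18.1 to 36.6 for T10-L1 DRG, 16.7 to 26.2 for TG and 2.81 to 20.9 for NG/JG. These markers include *Scn10a*, also a nociceptor gene, which DESeq2 called between ganglia. The scale can therefore change with the kind of neuron as well as with neuron content. On this scale the log2 difference between L3–L5 and T10-L1 DRG came to 0.40 (p = 0.571, exact permutation test, two-sided), against 1.36 from the fit. NG/JG still did not overlap L3–L5 DRG, at a log2 difference of -2.36 (exact permutation p = 0.0286, the smallest that 4 against 4 libraries can give, and 0.0857 adjusted over the 6 pairs). NG/JG against T10-L1 DRG gave -1.96 and TG against NG/JG gave 1.67, each with p = 0.0571 by the exact permutation test. TG against L3–L5 DRG shrank from -1.72 in the fit to -0.69, with p = 0.0571 (exact permutation test, 0.0857 adjusted), and on this scale the libraries of these ganglia overlapped. L3–L5 DRG library 4 had the highest *Piezo2* on this scale (82.9) and the fewest neuron marker reads of its ganglion (1281 CPM).

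*Piezo1* (*Fam38a*) was a minor partner. Its libraries lay at 0.254, 2.95, 2.23 and 3.34 CPM in TG, at 0.278, 9.22, 0 and 4.44 in NG/JG, at 4.38, 0.297, 0.0824 and 16.7 in L3–L5 DRG and at 2.45, 8.38, 12.9 and 15.98 in T10-L1 DRG. In 5 libraries it had 3 reads or fewer. T10-L1 DRG had the highest mean (9.93 CPM ± 5.88, SD, n = 4), before L3–L5 DRG (5.36 ± 7.80), NG/JG (3.49 ± 4.33) and TG (2.19 ± 1.37), and every neighbouring pair in this order overlapped. Against T10-L1 DRG the fitted log2 differences were -1.79 for TG (SE 1.06), -1.45 for NG/JG (SE 1.62) and -1.01 for L3–L5 DRG (SE 1.34), and the adjusted p was 0.376 to 1.0 (edgeR). Without L3–L5 DRG library 4 the last of these was -2.75. How reads in the exon stretch shared with *Ctu2*, a tRNA thiolation gene, were counted depends on the strand setting, which is not given. Reads there could have been counted for *Piezo1* or set aside as ambiguous. *Ctu2* was read at 18.6 to 31.4 CPM in TG and 7.35 to 12.6 CPM in T10-L1 DRG, the opposite order to *Piezo1* in these ganglia, and at 10.9 to 39.6 CPM in L3–L5 DRG. In NG/JG it lay at 14.5, 79.7, 0 and 107 CPM, so that both genes were highest in libraries 2 and 4 and at 0 in library 3. The part of *Ctu2* reads in the *Piezo1* counts was not tested.

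Per kilobase of exon, *Piezo2* made up 52.8% to 100% of the Piezo RPKM of a library (median 94.0%) and more than *Piezo1* in 16 of 16 libraries. The mean share was 95.2% ± 2.4 for TG, 94.3% ± 8.0 for L3–L5 DRG, 86.1% ± 9.0 for T10-L1 DRG and 85.6% ± 22.1 for NG/JG (SD, n = 4). The 6 pairs of ganglia gave no unadjusted p under 0.05, and the lowest was 0.114 for TG against T10-L1 DRG (exact permutation test, two-sided, 0.6 adjusted). NG/JG library 2 stood apart at 52.8%, with 81 *Piezo1* and 119 *Piezo2* reads.

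Among the ASIC genes, *Accn3* (ASIC3), the subunit most tied to acid and muscle pain in sensory neurons, led per length with a mean of 18.9 RPKM over the 16 libraries. The mean was 4.72 RPKM for *Accn1*, 2.65 for *Accn2* and 0.0409 for *Accn4*, and on the same scale 7.15 for *Piezo2* and 0.528 for *Piezo1*. *Accn1*, *Accn2* and *Accn3* varied strongly between libraries of one ganglion. Within ganglia, the SD of log2(CPM + 1) was 1.84 for *Accn1*, 1.99 for *Accn2* and 1.87 for *Accn3*, each above the median of genes within 2-fold of its mean level (1.51, 1.54 and 1.39). For *Piezo2* it was 0.82 against a median of 0.86, and for *Piezo1* 1.41 against 1.42.

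**Figure D2:**
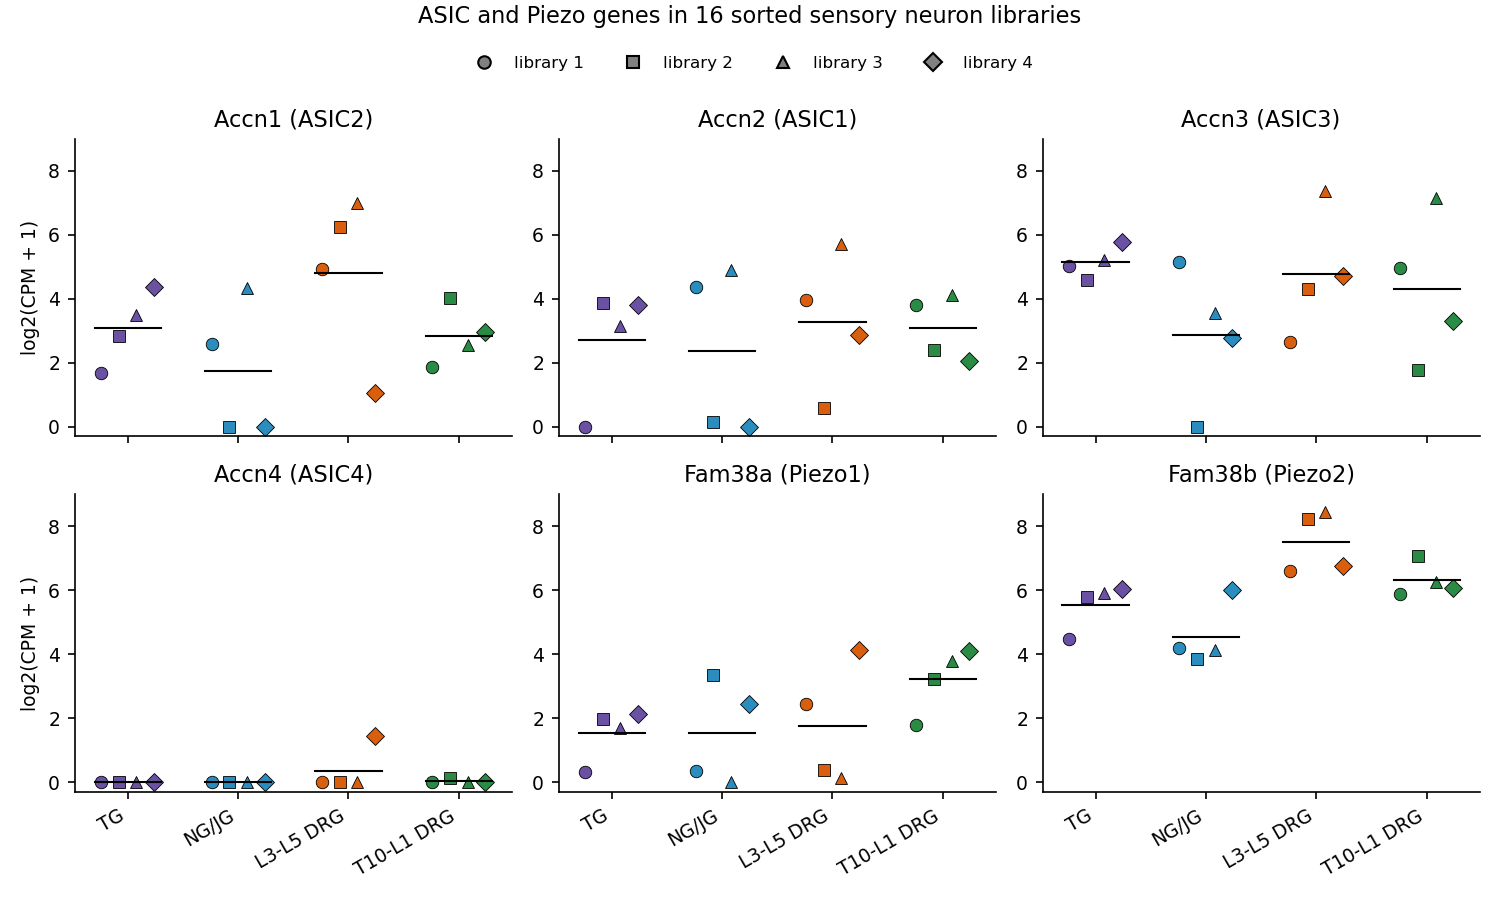
Level of each member as log2(CPM + 1) (vertical axes) in the 4 kinds of ganglion (horizontal axes); each point is a library, with its number given by the marker shape, and the line is the mean of 4. *Piezo2* lies above 3 in every library, *Accn3* and *Accn1* spread over most of the axis within one ganglion, and *Accn4* is at or near 0.

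*Accn3* lay at 31.1, 23.0, 35.6 and 53.4 CPM in the TG libraries, the narrowest group. In NG/JG it lay at 34.1, 0, 10.6 and 5.79 CPM, in L3–L5 DRG at 5.25, 18.9, 163 and 25.1, and in T10-L1 DRG at 29.96, 2.38, 140 and 8.93. Library 3 of each DRG level thus held most of its group's *Accn3* reads, and the groups overlapped throughout. L3–L5 DRG had the highest mean (53.1 CPM ± 73.9, SD, n = 4), before T10-L1 DRG (45.4 ± 64.4), TG (35.8 ± 12.8) and NG/JG (12.6 ± 15.0). Each neighbouring pair in this order overlapped, and the widest step, TG over NG/JG, had a fitted log2 difference of 1.69 (SE 1.46, adjusted p 0.823, edgeR). The fitted log2 difference of L3–L5 against T10-L1 DRG was 0.21 (SE 1.25). It became -1.54 without L3–L5 DRG library 3 and 1.95 without T10-L1 DRG library 3. The median CPM, which these libraries move less, put TG first (33.3), before L3–L5 DRG (22.0), T10-L1 DRG (19.4) and NG/JG (8.22).

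*Accn1* (ASIC2), the modulatory subunit, was also named by the study as higher in L3–L5 DRG from these same libraries, so its direction here is no independent evidence. The study found no gene between the DRG levels by its adjusted criteria, and listed *Accn1* under lowered criteria that used an unadjusted p. The L3–L5 DRG libraries lay at 29.5, 74.5, 125 and 1.06 CPM. The T10-L1 DRG libraries lay at 2.60, 15.0, 4.85 and 6.83, the TG libraries at 2.16, 6.10, 10.3 and 19.7 and the NG/JG libraries at 5.01, 0, 19.2 and 0. Of the 4 L3–L5 DRG libraries, 3 were above all other libraries of the series, and library 4, with 5 reads, was below every T10-L1 DRG and every TG library. Between the DRG levels the unadjusted p was 0.021 and the adjusted p 0.785 (edgeR), and leaving out 1 library at a time kept the fitted log2 difference between 2.24 and 3.54. Against L3–L5 DRG, the log2 differences were -2.22 for TG (SE 1.12) and -3.19 for NG/JG (SE 1.96), with adjusted p of 0.331 and 0.999 (edgeR). The other 3 ganglia overlapped widely and differed by less than their spread. L3–L5 DRG library 4, which had little *Accn1*, had the highest share of reads outside genes, the lowest neuron marker sum of its ganglion and the highest mural (1294 CPM) and endothelial (1386 CPM) marker sums of the series. The part of these in its *Accn1* level was not tested. Per 1000 CPM of neuron markers, *Accn1* was 0.824 to 10.2 in L3–L5 DRG (median 7.16) and 1.17 to 4.12 in T10-L1 DRG (median 2.12), and these ranges overlapped too.

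*Accn2* (ASIC1), the proton-gated subunit found widely in the nervous system, showed no separation of ganglia. It lay at 0, 13.4, 7.90 and 12.8 CPM in TG, at 19.3, 0.114, 28.6 and 0 in NG/JG, at 14.6, 0.496, 51.2 and 6.33 in L3–L5 DRG and at 12.8, 4.19, 16.1 and 3.15 in T10-L1 DRG. The means were 18.1 CPM ± 22.8 in L3–L5 DRG, 12.02 ± 14.3 in NG/JG, 9.07 ± 6.39 in T10-L1 DRG and 8.53 ± 6.19 in TG (SD, n = 4), and all overlapped. The 6 fitted differences had SEs of 1.11 to 2.08 on the log2 scale, wider than any of the differences themselves, and the test of any difference gave an adjusted p of 0.997 (edgeR). L3–L5 DRG library 3 decided the lead of L3–L5 DRG: without it the log2 difference from T10-L1 DRG turned from 0.99 to -0.44.

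*Accn4* (ASIC4) was at 0 in 14 libraries. L3–L5 DRG library 4 had 8 reads (1.69 CPM) and T10-L1 DRG library 2 had 1, so the gene failed the filter on low counts and was not tested. *Accn5*, the remaining gene of the family, also had 8 reads in L3–L5 DRG library 4 and 0 in the other 15. A count of 0 allows a level of up to the floor of 3 reads, 0.225 to 0.6335 CPM depending on the library. NG/JG library 2 was the opposite case for the other ASIC genes: it had 0 reads on *Accn1*, 1 on *Accn2* and 0 on *Accn3*, beside 4825 CPM of neuron markers and 119 reads on *Piezo2*.

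The makeup of the ASIC family was then taken within each library, as the share of each gene in the summed ASIC RPKM, which does not depend on how a library is scaled. It was computed for the 15 libraries with at least 20 ASIC reads, which left out NG/JG library 2 with 1 read. *Accn3* was the largest part in 11 of them, *Accn1* in 3 (L3–L5 DRG libraries 1 and 2 and T10-L1 DRG library 2) and *Accn2* in 1 (NG/JG library 3). The *Accn3* share averaged 82.5% ± 10.3 in TG (SD, n = 4), 69.9% ± 33.7 in NG/JG (n = 3), 65.9% ± 31.7 in T10-L1 DRG and 52.3% ± 29.2 in L3–L5 DRG. The *Accn1* share averaged 35.7% ± 28.5 for L3–L5 DRG, 22.4% ± 28.0 for T10-L1 DRG, 10.9% ± 14.7 for NG/JG and 8.95% ± 4.32 for TG. The *Accn2* share averaged between 8.57% in TG and 19.2% in NG/JG. None of the 23 tests of a share between a pair of ganglia reached an unadjusted p under 0.05 (exact permutation tests, two-sided). The lowest, 0.143, was shared by the higher *Accn3* share and the lower *Accn1* share of TG against L3–L5 DRG, with an adjusted p of 0.986.

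**Figure D3:**
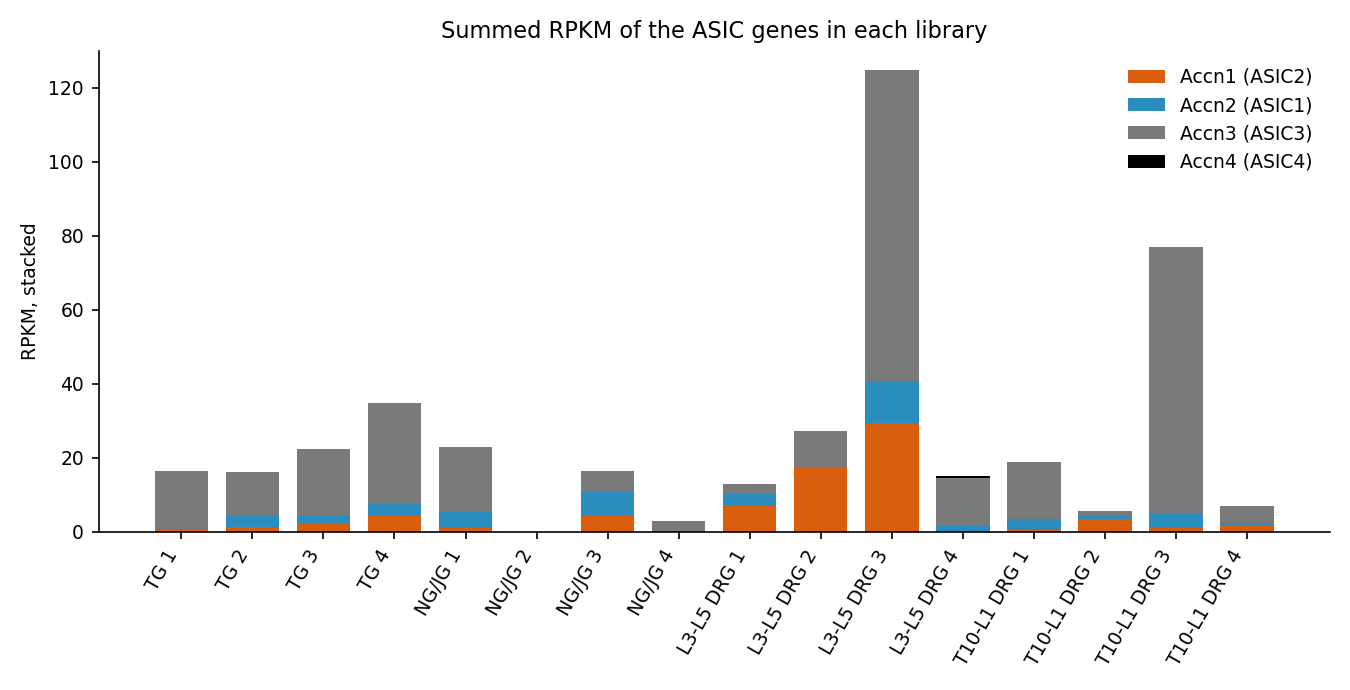
Summed RPKM of the 4 ASIC genes in each of the 16 libraries; the height of a coloured segment is the RPKM of one gene. Segments of *Accn3* are the tallest in 11 libraries, L3–L5 DRG library 3 and T10-L1 DRG library 3 are the highest columns, and NG/JG library 2 has almost none.

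The sum of the ASIC genes was 129 CPM ± 142 for L3–L5 DRG, 61.8 ± 67.4 for T10-L1 DRG, 53.9 ± 22.9 for TG and 30.7 ± 32.1 for NG/JG (SD, n = 4). The 6 pairs of ganglia gave exact permutation p-values from 0.171 (TG against NG/JG) upwards, 0.515 after adjustment. The sum ran from 34.2 to 339 CPM among the L3–L5 DRG libraries, from 18.9 to 161 CPM in T10-L1 DRG, from 33.3 to 85.9 CPM in TG and from 0.114 to 58.5 CPM in NG/JG.

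Across the 6 pairs of ganglia, 30 differences of the 5 testable members were fitted, and 0 had an adjusted p under 0.05 in edgeR. The lowest was 0.144, for *Piezo2* in TG against L3–L5 DRG. Over all genes tested, edgeR called 0.0% in L3–L5 against T10-L1 DRG, in NG/JG against L3–L5 DRG and in TG against L3–L5 DRG, 0.0322% in NG/JG against T10-L1 DRG, 0.051% in TG against NG/JG and 5.87% in TG against T10-L1 DRG. Without adjustment 4 of the 30 had a p under 0.05: *Accn1* and *Piezo2* in L3–L5 against T10-L1 DRG (6.07% of genes), and *Piezo2* in NG/JG (6.04%) and in TG (18.2%) against L3–L5 DRG. All 4 were higher in L3–L5 DRG. In the remaining pairs, where no member had such a p, the share of genes was 5.91% in NG/JG against T10-L1 DRG, 21.6% in TG against T10-L1 DRG and 10% in TG against NG/JG. DESeq2 gave an adjusted p for 29 of the 30 and called 2, both *Piezo2*. It gave none for *Piezo2* in TG against NG/JG. It called 0.499% of all genes in L3–L5 against T10-L1 DRG, 6.13% in NG/JG against T10-L1 DRG, 15.4% in TG against T10-L1 DRG and 6.35% in TG against NG/JG, and in these pairs it called none of the members it gave an adjusted p.

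**Figure D4:**
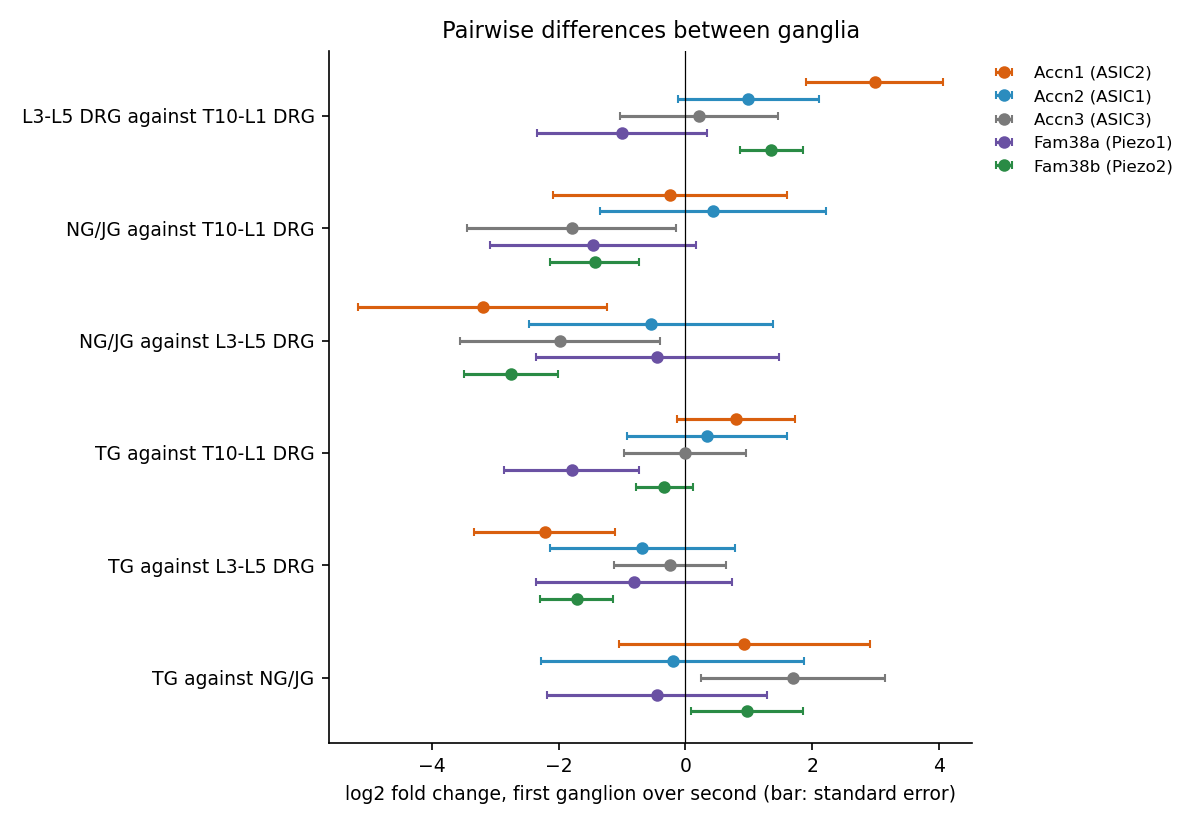
Fitted log2 fold change of each testable member (horizontal axis; the first-named ganglion over the second) in the 6 pairs of ganglia (vertical axis); points are edgeR estimates and bars are 1 standard error on each side. *Piezo2* has the shortest bars and lies at -2.75 for NG/JG and -1.72 for TG against L3–L5 DRG, and *Accn1* lies farthest to the right, in L3–L5 against T10-L1 DRG.

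The members did not rise and fall as one set over the 16 libraries, which share ganglia, depth and cell makeup within groups, so the coefficients here are descriptions. On log2 levels *Accn1* went with *Piezo2* (Pearson r 0.59, Spearman rho 0.57) and with *Accn2* (0.52 and 0.54), and *Accn2* went with *Accn3* (0.56 and 0.54). *Piezo1* ran weakly against *Accn1* (-0.48 and -0.48) and against the sum of the ASIC genes (-0.42 and -0.48), and was unrelated to *Piezo2* (0.06 and 0.04). *Piezo1* followed the summed mural cell markers (0.75 and 0.72), genes of the cells that wrap blood vessels, and its relation to *Ctu2* was 0.24 and 0.11. It also went with the fibroblast markers (0.60 and 0.43). Both *Piezo1* and the mural markers were high in L3–L5 DRG library 4 (16.7 and 1294 CPM), and the part of vessel-wall RNA in the *Piezo1* level was not tested. *Accn1* ran against the 8 immediate-early genes such as *Fos* and *Egr1*, which rise when tissue is dissociated (-0.83 and -0.78), and so did *Piezo2* (-0.61 and -0.54). The sum of these genes was 2626 to 13748 CPM for L3–L5 DRG, 13167 to 33267 for T10-L1 DRG, 15108 to 44464 for NG/JG and 7886 to 20871 for TG, so NG/JG did not overlap L3–L5 DRG. *Accn1* and *Piezo2* also ran against the 8 oligodendrocyte markers (-0.67 and -0.62 for *Accn1*, -0.66 and -0.54 for *Piezo2*), which summed to 1640 to 6733 CPM for L3–L5 DRG, 3203 to 7167 for T10-L1 DRG, 4972 to 7264 for NG/JG and 2402 to 13210 for TG. Of these markers *Olig2* was at 0 in NG/JG and L3–L5 DRG, and *Opalin* in both DRG levels. *Accn1* also went with the sensory neuron markers (0.62 and 0.53), and *Piezo2* less closely (0.49 and 0.31). Against the satellite glia markers *Piezo2* ran at -0.53 and -0.54, and *Accn1* at -0.19 and -0.07. The part of any of these lists in the differences between ganglia was not tested.

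**Figure D5:**
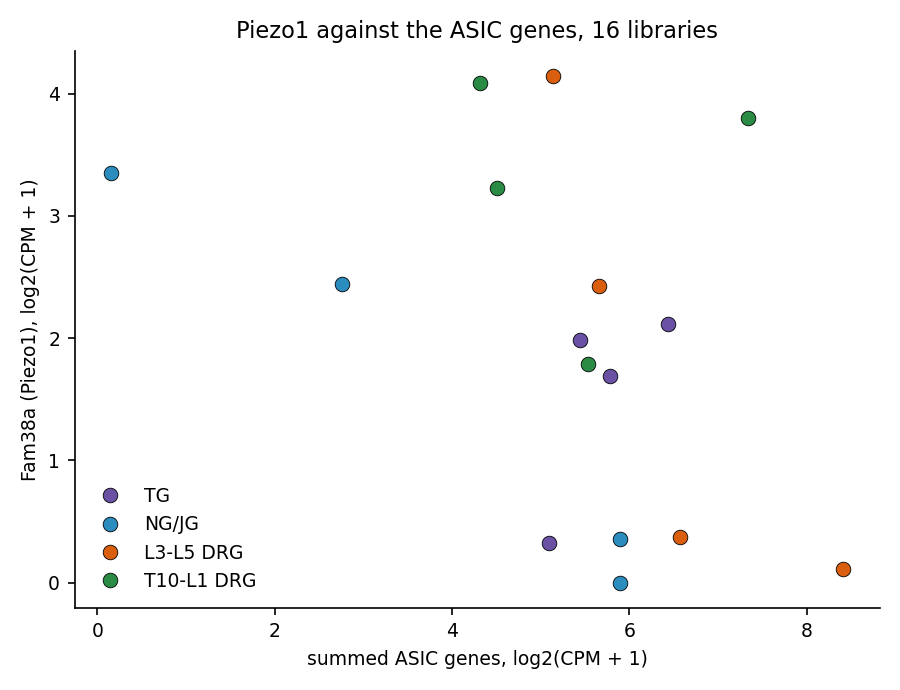
*Piezo1* (vertical axis) against the sum of the ASIC genes (horizontal axis), both as log2(CPM + 1), for 16 libraries coloured by ganglion. L3–L5 DRG library 3 has the most ASIC reads (339 CPM) and almost no *Piezo1* (0.0824 CPM), and NG/JG library 2 has 9.22 CPM of *Piezo1* and 0.114 CPM of ASIC genes.

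For each testable member, the genes with the most similar profile were taken as the highest Pearson correlations of log2 levels over the 16 libraries, among 14236 genes. For *Piezo2* they were *Trpm4* (r 0.91), *Leprotl1* (0.89) and *Gm11818* (0.87). For *Piezo1* they were *Eda* (0.89), *Sfrp4* (0.88) and *Aldh1a1* (0.85), and for *Accn1* they were *Kifap3* (0.91), *Kctd16* (0.90) and *Grik4* (0.89). For *Accn2* they were *Ryr3* (0.89), *Leng9* (0.88) and *Efnb2* (0.88). *Accn3* had no profile as close, with *Ncoa1* (0.78), *Spock1* (0.76) and *Cyp4f14* (0.75). With Spearman's rho in place of Pearson's r, 2 of the 3 genes remained for *Piezo1*, 1 for *Piezo2* and 0 for each of the ASIC genes.

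Genes that work beside these channels were read from lists, each gene tested over the whole table. Of 15 degenerin and ENaC relatives and ASIC partners, 8 were tested in TG against T10-L1 DRG, and 2 passed edgeR's adjusted threshold there. This comparison called 5.87% of all genes tested. *Stom*, the membrane protein stomatin that inhibits ASIC3 currents, was lower in TG, with a log2 difference of -2.41 (SE 0.52, adjusted p 0.033, edgeR), at 5.56 RPKM ± 2.74 against 36.3 ± 18.9 (SD, n = 4). *Stoml2*, its mitochondrial relative, was higher in TG, with a log2 difference of 1.39 (SE 0.32, adjusted p 0.0378, edgeR), at 23.6 RPKM ± 3.4 against 11.7 ± 1.7. *Stoml1* was the most abundant of this list (49.9 RPKM over all libraries) and passed in no comparison. Of 10 Piezo modulators, 8 of them tested in TG against T10-L1 DRG, *Cdh2* (N-cadherin, an adhesion protein) was lower in TG. Its log2 difference was -2.49 (SE 0.62, adjusted p 0.0448, edgeR), at 1.94 RPKM ± 1.85 against 13.3 ± 6.9. *Anxa6* (annexin A6), the most abundant of the 10, was at 52.8 RPKM ± 11.9 in TG and 147 ± 45.3 in T10-L1 DRG. It missed the threshold (adjusted p 0.0606, edgeR). These calls depend on single libraries: edgeR called 0 genes in this comparison without TG library 2 or 3 or T10-L1 DRG library 1 or 2, 1 without TG library 4 or T10-L1 DRG library 3, and 3583 without TG library 1. DESeq2 called all 3 of them too, and *Anxa6* as well.

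No gene of the other lists passed edgeR's adjusted threshold in any of the 6 pairs: 14 other proton sensors, 10 proton handling genes, 25 other mechanically gated or mechanosensory candidate channels, 20 touch and proprioceptive neuron genes and 14 nociceptor genes. In the same order, the filter left 9 to 12, 8 to 9, 18 to 22, 12 to 15 and 11 to 13 of them to test, depending on the pair. DESeq2, with its own filter, called 5, 3, 6, 6 and 9 genes of these lists in at least one pair, among them *P2rx2* in L3–L5 against T10-L1 DRG (adjusted p 0.000704). In single pairs it called 0.499% to 15.4% of all genes. The share of all genes called in at least one pair is not given here, so these counts are descriptions. At an unadjusted p under 0.05, of 12 proton sensors tested 4 were higher and 0 lower in the lumbar than in the T10-L1 DRG, where 3.35% of all genes were higher. The most abundant proton sensors were *P2rx3* (57.1 RPKM over all libraries), an ATP receptor of nociceptors and visceral afferents, *Kcnk1* (46.9) and *P2rx2* (38.5), which pairs with *P2rx3* and is made more sensitive by acid. *P2rx2* averaged 149.5 RPKM ± 229 in NG/JG (range 0.0521 to 488), and its mean was 3.84 ± 1.94 in L3–L5 DRG, 0.284 ± 0.117 in TG and 0.189 ± 0.114 in T10-L1 DRG. The most abundant proton handling genes were *Slc16a1*, a lactate and proton carrier (28.6 RPKM), and the carbonic anhydrases *Car2* (23.1) and *Car4* (9.72). The most abundant mechanosensory candidates were *Tmem120a* (38.2 RPKM), *Lrrc8a* (24.3), a subunit of volume-regulated anion channels, and *Tmem63b* (14.6), a stretch-activated cation channel, all above the 7.15 RPKM of *Piezo2*. Of 21 tested candidates, 0 were higher and 5 lower in TG than in L3–L5 DRG without adjustment, where 8.02% of all genes were lower at that level.

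The lists for kinds of neuron give the setting. The nociceptor genes had a median log2 difference of 1.29 in L3–L5 against T10-L1 DRG, -3.11 in NG/JG against L3–L5 DRG and -2.17 in TG against L3–L5 DRG, where the medians of all genes were 0.03, 0.01 and -0.03. Unadjusted, 7 of 12 were lower in NG/JG than in L3–L5 DRG and 0 higher, where 3.68% of all genes were lower. After adjustment DESeq2 called 4 of the 12 lower there and 5 of 12 lower in TG than in L3–L5 DRG. It called 5.66% and 11.3% of all genes, in either direction, in these pairs. *Calca*, the CGRP gene, was at 1276 RPKM ± 1049 in L3–L5 DRG and 46.2 ± 65.0 in NG/JG, and *Tac1*, the substance P gene, at 798 ± 679 and 36.3 ± 44.5. The touch and proprioceptive genes had medians of -0.06, -0.36 and 0.38 in the same 3 comparisons, and in the last 2 of 14 were higher and 3 lower without adjustment. Of all genes, 18.2% had an unadjusted p under 0.05 there in either direction, and 8.02% were lower (edgeR). The 3 most abundant had lower means in TG than in L3–L5 DRG, against the sign of the list's median: *Gfra2* was at 41.4 RPKM ± 26.0 in L3–L5 DRG and 6.91 ± 4.05 in TG, *Th*, a marker of low-threshold C fibres in DRG, at 50.9 ± 38.4 and 5.64 ± 6.37, and *Ntrk2*, the receptor of Aδ touch neurons, at 19.2 ± 4.1 and 9.62 ± 2.64 (SD, n = 4). In NG/JG the mean of *Ntrk2* was 36.0 RPKM ± 11.2, above that of L3–L5 DRG, and *Gfra2* was at 23.7 ± 14.0 and *Th* at 43.3 ± 32.8.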

How the data were processed

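Per the labels and the study's methods, the authors prepared SMART-seq2 cDNA with oligo dT from sorted cells, sequenced 50 bp single reads, demultiplexed them (with bcl2fastq in the submitters' processing notes and CASAVA in the methods), used TopHat2 for alignment to mm9, and took gene counts from HTSeq. The deposited values are raw read counts per gene symbol, one table per library, with no normalization. Tool versions, gene annotation and strand setting are not given in the sources used here. The counter's own totals of uncounted reads were left out of library sizes and tests.

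Libraries had 4735624 to 13333318 reads on genes, and a floor of 3 reads was used. The 8 libraries of each pair of ganglia were fitted apart from the others in edgeR 4.0.16 (R 4.3.3; TMM factors, filterByExpr, quasi-likelihood test, group as the only term, Benjamini-Hochberg over all genes tested, call at an adjusted p under 0.05). SEs were derived from the log2 fold change and its F statistic. The same fit over 16 libraries tested any difference. RPKM used the union of exons in GENCODE mouse release 1, which gave 21702 of 22609 genes a length (75 through a synonym). Shares and sums of members were compared by exact two-sided permutation tests, for which p = 0.0286 is the smallest possible. The ASIC shares were adjusted over all genes and pairs together, and the other measures over the pairs. Sums used log2(CPM + 1) with TMM-scaled CPM. The edgeR and DESeq2 fits were run on data simulated for L3–L5 against T10-L1 DRG, with 200 genes changed or none. The other pairs were not simulated, and the call rates are not given here. Python 3.11.15, pandas 2.3.3, numpy 2.4.6 and scipy 1.17.1 were used.

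The members and gene lists were chosen with earlier results of these data known. The genes named are all members, *Accn5*, the 3 genes most correlated with each testable member, and from each list those with an adjusted p under 0.05 in a pair and the 3 with the highest mean RPKM. The minimum of 20 ASIC reads and the level per neuron marker were chosen after seeing the data. Alternatives were DESeq2 1.42.0, RLE factors, no filter, all 16 libraries in one fit, the replicate number as a block, each library left out, other pseudocounts and length scales, and medians.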

Additional observations from a re-analysis of the deposited data

Results flagged for a closer look

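Among the groups of 4 values of a member in a ganglion with a read in at least 2 libraries, 2 had a library far from the others. The groups were those of every member but *Accn4* in all 4 ganglia. Chance gives about 1 in 20 such groups for normally spread values, and whether these CPM values are so spread was not tested. *Accn3* was at 163 CPM in L3–L5 DRG library 3, and the other 3 libraries of that ganglion lay between 5.25 and 25.1 CPM. *Piezo2* was at 62.9 CPM in NG/JG library 4, and the other 3 lay between 13.5 and 17.4 CPM. Apart from these, where any read stands apart from zeros, *Accn4* was at 1.69 CPM in L3–L5 DRG library 4 and at 0.0952 CPM, a single read, in T10-L1 DRG library 2, with 0 in the other libraries of both ganglia. *Accn5*, which no comparison used, had 8 reads in L3–L5 DRG library 4 and 0 in every other library. L3–L5 DRG library 4 also had the largest share of reads outside genes, 66.6%, and the most genes with a read, 18571. The cause of these values was not tested.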

How the results depend on the processing

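The number of genes called over the whole table moved far more than the members did. DESeq2 raised it from 0 to 78 in L3–L5 against T10-L1 DRG, from 4 to 909 in NG/JG against T10-L1 DRG, from 0 to 819 in NG/JG against L3–L5 DRG, from 758 to 2199 in TG against T10-L1 DRG, from 0 to 1612 in TG against L3–L5 DRG, from 6 to 854 in TG against NG/JG and from 429 to 1868 for any difference. Without the filter on low counts the last 6 of these were 9, 2, 427, 39, 56 and 241, and with all 16 libraries in one fit the pairs among them gave 54, 83, 238, 206 and 484. Leaving out each library gave 1 to 5, 0 to 2, 0 to 3583, 0 to 2038, 1 to 325 and 33 to 1035 calls. The highest counts in the 3 pairs with TG and for any difference came without TG library 1, and several libraries left out in turn gave the lowest. The cause was not tested.

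*Piezo2* passed the adjusted threshold with DESeq2 in NG/JG against L3–L5 DRG (0.0298), TG against L3–L5 DRG (0.0465) and any difference (0.00551). For any difference its adjusted p ranged from 0.0118 to 0.221 over the libraries left out. No other member passed under any alternative. Among the fitted log2 differences, *Accn3* in TG against T10-L1 DRG, at -0.003, turned to 0.01 with both DESeq2 (0.0081) and RLE factors (0.0092). Leaving out 1 library turned the sign of 13 of them. *Accn2* ranged from -0.44 to 1.44 in L3–L5 against T10-L1 DRG, -0.42 to 0.89 in NG/JG against T10-L1 DRG, -1.42 to 0.87 in NG/JG against L3–L5 DRG, -0.0036 to 0.78 in TG against T10-L1 DRG, -1.22 to 0.74 in TG against L3–L5 DRG and -0.62 to 0.65 in TG against NG/JG. *Accn3* ranged from -1.54 to 1.95 in L3–L5 against T10-L1 DRG, -0.41 to 1.74 in TG against T10-L1 DRG and -0.69 to 1.51 in TG against L3–L5 DRG. *Fam38a* (*Piezo1*) ranged from -1.39 to 1.26 in NG/JG against L3–L5 DRG, -1.22 to 0.71 in TG against L3–L5 DRG and -0.97 to 0.51 in TG against NG/JG, and *Accn1* from -2.06 to 0.32 in NG/JG against T10-L1 DRG. The libraries at the ends of these ranges were most often L3–L5 DRG libraries 3 and 4, T10-L1 DRG library 3 and NG/JG library 3.

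The *Piezo2* share of Piezo RPKM turned sign with medians in NG/JG against T10-L1 DRG (7.75 percentage points), TG against L3–L5 DRG (-2.68) and TG against NG/JG (-0.293). With a library left out it ranged from -5.35 to 10.4 and from -13.5 to 2.21 points in NG/JG against T10-L1 and against L3–L5 DRG, from -2.91 to 2.78 in TG against L3–L5 DRG and from -1.33 to 14.4 in TG against NG/JG. The log2 difference of summed ASIC level in TG against L3–L5 DRG ranged from -0.785 to 0.320, with the highest value without L3–L5 DRG library 3.

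Same-numbered libraries showed no clear pairing: in no comparison were all correlations of their deviations over 0.1. Such correlations cannot decide whether these libraries shared animals or days. In NG/JG against L3–L5 DRG every library correlated best with its own number (0.053 to 0.197), a hint from the data and not from the design. With the number as a replicate block the calls were 0 in NG/JG against T10-L1 DRG, 0 in TG against T10-L1 DRG, 1 in TG against NG/JG and 184 for any difference. Under the block the log2 differences that turned sign were *Accn2* in NG/JG against T10-L1 DRG (-2.19) and TG against NG/JG (2.29), *Accn3* in TG against T10-L1 DRG (1.38) and TG against L3–L5 DRG (0.88) and *Fam38a* in TG against L3–L5 DRG (0.69) and TG against NG/JG (0.42). Of the values for single members under the alternatives, 461 kept their direction and side of the threshold, 29 turned sign and 5 passed the threshold that the main fit missed. The low counts of *Accn4* and *Piezo1* limit what can be seen of them, while the spread between libraries limits the others.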
